A study of Homo sapiens with 15 samples.

Results

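The regions described here are 20918 stretches of the human autosomes, each 5 kb or longer, that carried 2 domain classes at the same time before any knockdown. They were called both an unmethylated region (UMR) and part of a partially methylated domain (PMD). A base pair counted as a member when the domain lists of both shDNMT1 bulk Baseline libraries, R1 and R2, put it in both classes. Touching base pairs were merged and pieces under 5 kb were dropped, which removed 4917 of 25835 pieces. The remaining stretches covered 223 of the 239 Mb of overlap, 7.74% of autosomal base pairs, and held 1212483 CpGs, 4.35% of autosomal CpGs. Methylation in R1 and R2 at Baseline therefore chose the members, and their Baseline values appear below as a description with no test.

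The assay was whole-genome bisulfite sequencing of HCT116 cells, a line from a human colorectal carcinoma. Every population, the controls included, carried a short hairpin RNA (shRNA) that doxycycline switches on. The hairpin targeted UHRF1 in 3 clonally expanded lines (Cl.3, Cl.6 and Cl.9, called clones below) and DNMT1 in 2 bulk cultures, R1 and R2. Libraries were made from each at Baseline (day 14, no doxycycline, with DMSO as vehicle per the study's methods), at Knockdown (day 14, 10 ng/mL doxycycline throughout) and at Recovery (day 28, after 14 days with 10 ng/mL doxycycline and 14 days without), which gave 15 libraries. Because the shUHRF1 populations were clones and the shDNMT1 populations were bulk cultures, in separate count tables, an effect of the hairpin and of the culture type or table cannot be told apart. UHRF1 and DNMT1 levels were not analysed here, so the depletion was not checked, and Recovery had no Baseline of day 28.

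PMDs are long blocks of the genome, mostly late-replicating and poor in active genes, in which methylation is incomplete in cancer cells and in cells that have divided many times. DNMT1 copies methylation onto the new DNA strand after replication, and UHRF1 reads hemimethylated CpGs and brings DNMT1 to them. CpGs that stand alone and are flanked by A or T, called solo-WCGW CpGs, are known to lose methylation earliest in PMDs. UMRs are otherwise best known as the CpG islands of promoters, where CpGs are packed and unmethylated.

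The libraries held 317670080 to 593644411 reads at CpGs, with a median of 11 to 21 reads per autosomal CpG. Inside the stretches each library had 14314656 to 26699205 reads, a median of 600 to 1122 reads per stretch. The methylation level (mC) is the number of reads that kept C divided by all reads at the CpGs concerned, in percent. At this depth the Wilson 95% interval of a library's mC over all stretches was at most 0.0214 points on either side. Reads carry no molecular identifiers, so intervals cover counting error only.

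The name UMR did not describe these stretches in the counts. Their mC at Baseline was 24.5% in R1 and 24.5% in R2, the libraries that chose them, and 24.9%, 26.6% and 20.3% in Cl.3, Cl.6 and Cl.9. In 134 UMRs outside PMDs that both lists shared and that passed the same 5 kb limit (1.01 Mb in all, so shorter promoter UMRs are not among them), mC at Baseline was 3.63% to 6.49%, and in the rest of the PMDs, taken without UMRs and low-methylated regions (LMRs), it was 72.2% to 76.7%. The stretches thus lay well above these long UMRs and well below the rest of the PMDs so taken, in every population. Sequence within 20 kb outside the stretches was lower than that class, at 42.6% to 58.7% per kb in Cl.3 at Baseline. They are called low-methylated PMD stretches below. In R1 the caller's UMRs held a median of 54 CpGs, its 99th percentile for LMRs was 29 CpGs, and the 1st percentile for UMRs was 30, so the number of CpGs separated both classes. Of UMR length in R1 and R2 at Baseline, 92.2% and 92.1% lay inside PMDs. At the 5 kb limit, 1245 members of 5.0 to 5.5 kb had an mC of 25.8% in Cl.3 Baseline and 25.2% in R1 Baseline, and 1157 pieces of 4.5 to 5.0 kb just outside it had 25.5% and 25.4%.

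The stretches were CpG-poor. They held 5.45 CpGs per kb against 9.90 in the rest of the PMDs, 10.3 in highly methylated domains (HMDs) and 31.5 in the UMRs outside PMDs. Low-density CpGs, whose nearest CpG is at least 20 bp away, made up 78.4% of their CpGs against 54.4% in the rest of the PMDs. Solo-WCGW CpGs, with no other CpG within 35 bp and flanked by A or T, made up 25.9% against 12.5%. Their GC content was 37.5% against 40.7%. The median stretch was 8.88 kb long with 45 CpGs, and 243 stretches reached 30 kb. The spacing measures come from the reference sequence alone, and the members were chosen by methylation, which follows spacing in PMDs, so these shares are a description.

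CpG spacing inside a stretch is shown by pairs of 30 bases of hg38, plus strand, with the CpGs in capitals. Each pair holds a solo-WCGW CpG and a CpG with another within 10 bp, in each case the one nearest to the middle of the stretch among those that 10 or more reads covered in each library. The pairs are from the stretch at the start of NRXN3 (neurexin 3, a presynaptic adhesion protein), the stretch at the start of GRIA1 (an AMPA-type glutamate receptor subunit) and the stretch at the start of POTEB, a member of a multicopy gene family, which is the second longest with 200 reads in every library. The first 2 pairs were chosen after values were seen, and the POTEB pair is shown because its levels ran the other way.
NRXN3, isolated CpG, chr14:78165531-78165560: gcaggataggaacaCGaaggtagagagttc
NRXN3, paired CpG, chr14:78164450-78164479: atgggaaggagaggCGgaggCGgagatggg
GRIA1, isolated CpG, chr5:153488415-153488444: gagcagggcaatgaCGtagacctctgtttt
GRIA1, paired CpG, chr5:153488123-153488152: gggtgacagttgtcCGggttCGtctgtctt
POTEB, isolated CpG, chr15:21921586-21921615: ggaaataatctattCGaatcttctatatcc
POTEB, paired CpG, chr15:22052025-22052054: gtcaggaattgggtCGtgctcctCGtttta

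In each sequence the measured CpG stands in the middle. At the isolated GRIA1 CpG, 286 bp from its nearest neighbour, mC at Baseline was 3.33% in Cl.3, 4% in Cl.9 and 12.5% in R1, and it was 0% in Cl.6. At the paired GRIA1 CpG, 6 bp from its neighbour, it was 4.35%, 46.7% and 26.9% in the same libraries and 45.5% in Cl.6. The paired CpG was therefore higher in each of these libraries, though in Cl.3 by only about a point. These CpGs had 14 to 34 reads per library, so the widest Wilson 95% interval was 13.3 points either side for the isolated and 20.7 points for the paired CpG, and a 0 at 14 reads would allow up to 21.4%. In the POTEB stretch the isolated CpG was at 92.9% in Cl.6, 27.3% in R1 and 57.9% in R2 at Baseline and the paired CpG at 0%, 6.67% and 5%, while both were at 0% in Cl.3. These CpGs had 10 to 32 reads per library, where a 0 at 10 reads would allow up to 30%. Single CpGs at this depth are shown as examples and were not compared by a test.

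Over all stretches, methylation that was low at Baseline was lower still at Knockdown of UHRF1. In Cl.3, mC was 24.9% at Baseline, 16.3% at Knockdown and 18.0% at Recovery. In Cl.6 it was 26.6%, 13.5% and 15.8%, and in Cl.9 it was 20.3%, 6.83% and 8.38%. Each clone was highest at Baseline and lowest at Knockdown, and the Baseline range of the clones did not overlap their Knockdown range. In R1 the same 3 stages gave 24.5%, 10.8% and 24.1%, and in R2 they gave 24.5%, 10.6% and 24.1%. Both bulk populations came back to within a point of Baseline and no clone did.

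**Figure D1:**
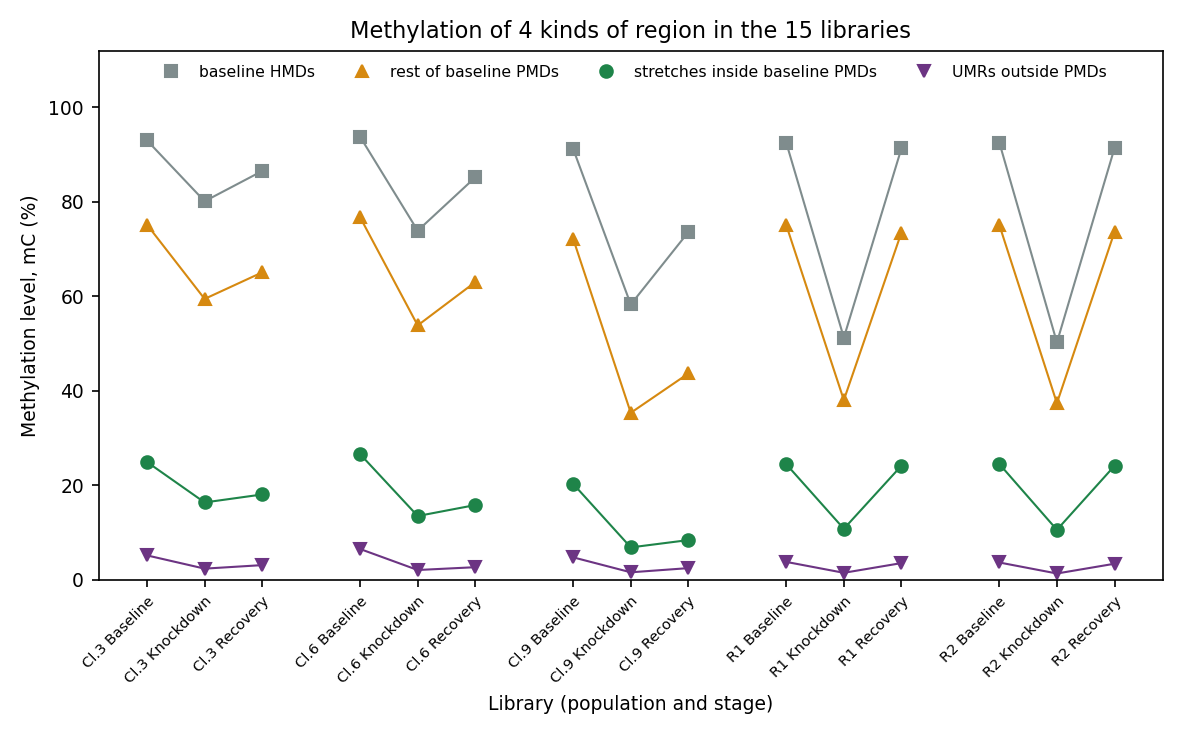
Methylation level (percent, pooled reads) at Baseline, Knockdown and Recovery, one line per population, for the low-methylated PMD stretches and the region classes they are compared with. In the stretches, R1 and R2 go from 24.5% to 10.8% and 10.6% and back to 24.1%, and the 3 clones stay between 8.38% and 18.0% at Recovery.

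The change from Baseline to Knockdown in the clones was −8.56, −13.1 and −13.4 points, a mean of −11.7 ± 2.73 points (SD, n = 3 clones). It had the same sign in 3 of 3 clones, and an exact two-sided sign-flip permutation test gave p = 0.25, the smallest that 3 clones allow. With 3 changes of the same sign this test gives that p whatever their size or spread. In R1 and R2 the change was −13.7 and −13.9 points, given as a description because their Baseline chose the stretches. The Knockdown level was 12.2% ± 4.88 in the clones (SD, n = 3) and 10.7% ± 0.152 in the bulk populations (SD, n = 2). The difference of −1.56 points was within the spread between the clones (exact permutation p = 0.8) and changed sign, to 0.510 points, without Cl.3. The Knockdown levels of the shRNAs were therefore not distinguishable.

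Tested stretch by stretch, 20778 of the 20810 stretches with enough reads were lower at Knockdown than at Baseline in the clones and none was higher (edgeR quasi-likelihood test on methylated and unmethylated counts with the population as a block, Benjamini-Hochberg adjusted over 153490 autosomal regions, called under 0.05). By limma 20802 were lower and none higher, and at an unadjusted p under 0.05 edgeR had the same 20778. Among all regions tested, 99.9% were called lower and 0.000652% higher, so this count is not particular to the stretches. The other 108 stretches had under 5 CpGs or under 50 reads in some library and were not tested. The median fitted change was −1.30 on the log2 odds scale, where the odds are methylated to unmethylated reads, against −1.69 in 20 kb windows of the rest of the PMDs and −2.34 in HMD windows. On this scale the stretches changed least, although they lost a larger share of their methylation than both kinds of window, as follows. Only 1 tested stretch was higher at Knockdown in all 3 clones, chr1:144251471-144412972 with PPIAL4E, a member of a multicopy gene family. Its log2 odds change of 0.04 ± 0.33 (SE) was not called (edgeR adjusted p = 0.910), and it was named after its values were seen.

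The share of Baseline methylation still present at Knockdown is the level at Knockdown divided by that at Baseline. In the stretches Cl.3, Cl.6 and Cl.9 kept 65.6%, 50.7% and 33.7%, a mean of 49.997% ± 15.99 (SD, n = 3). In the rest of the PMDs it was 79.1%, 70.2% and 49.0%, and in HMDs 86.2%, 78.8% and 63.9%. Among these 3 classes the order was the same in each clone, stretches lowest and HMDs highest. UMRs outside PMDs, whose levels were lower throughout, kept 45.4%, 31.5% and 32.9%, less than the stretches in every clone, so a low kept share was not particular to the stretches. The difference between stretches and the rest of the PMDs was −13.5, −19.5 and −15.3 points, a mean of −16.1 ± 3.07 (SD, n = 3; exact sign-flip permutation p = 0.25, the smallest possible). In R1 and R2 the stretches kept 44.04% and 43.1%, the rest of the PMDs 50.7% and 49.8% and HMDs 55.4% and 54.3%. The order was the same over a narrower range, and UMRs outside PMDs kept 38.5% and 35.9%. The Baseline of R1 and R2 chose the stretches, so these bulk shares are a description. UMRs outside PMDs were at 3.63% to 6.49% at Baseline and 1.30% to 2.33% at Knockdown. With their level subtracted at each stage, an alternative added after the data were seen, the clone difference was −14.6 points. That level was itself lower at Knockdown, so the subtraction does not model a fixed residue of unconverted cytosine. The part of such a residue was not tested.

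CpG spacing ordered the levels inside the stretches as well. With another CpG 2 to 9 bp away, mC at Baseline was 43.4%, 44.7% and 37.0% in Cl.3, Cl.6 and Cl.9. With none within 100 bp it was 20.2%, 22.0% and 16.2%. Each clone fell through the classes in between without a reversal, and R1 and R2 gave 42.1% and 42.2% for the closest and 20.0% for the most distant class. Low-density CpGs had 16.2 ± 0.969 points less mC than high-density CpGs at Baseline in the clones (−17.0, −16.6 and −15.1 points; exact sign-flip permutation p = 0.25). Solo-WCGW CpGs, 313710 in number, were lower still, at 12.97%, 14.8% and 9.91% at Baseline and 6.70%, 5.49% and 2.16% at Knockdown. In the rest of the PMDs the same kind of CpG was at 53.9%, 57.5% and 50.7% at Baseline. That gap in level follows from the rule that chose the stretches and from the removal of UMRs and LMRs from the rest of the PMDs.

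**Figure D2:**
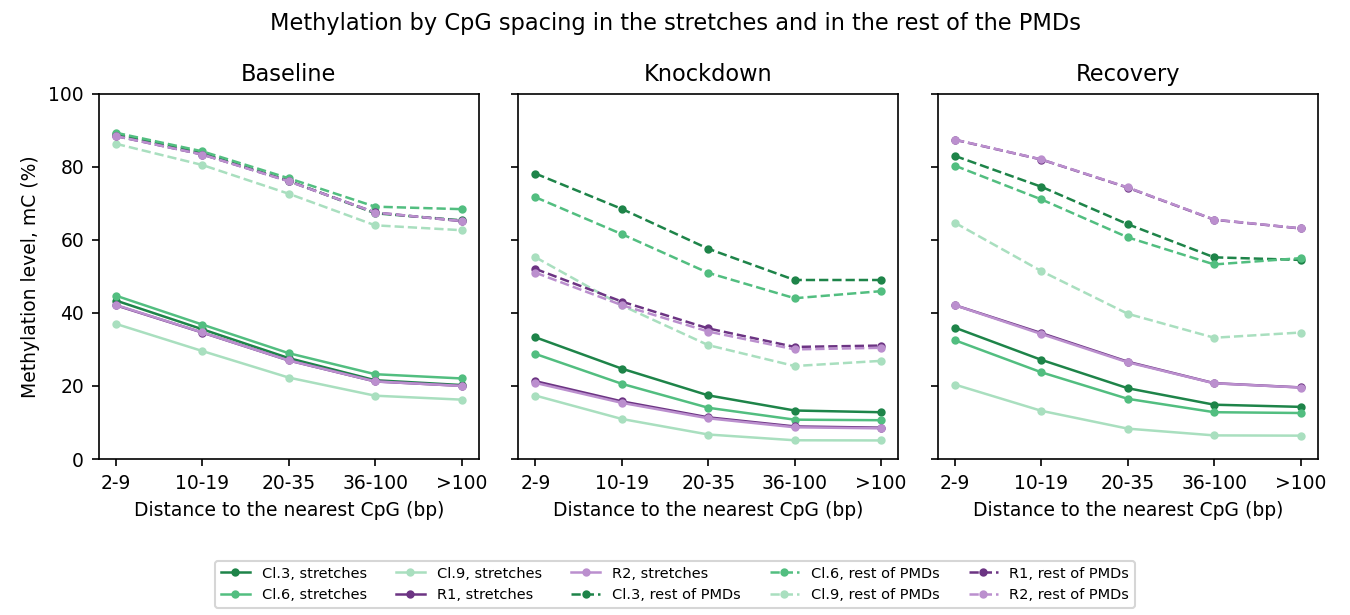
Methylation level (percent) by distance to the nearest CpG inside the stretches and in the rest of the PMDs, for Baseline, Knockdown and Recovery. Inside the stretches the 2 to 9 bp class is highest in each population and the class beyond 100 bp is near the lowest, and each class lies below its counterpart in the rest of the PMDs.

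The share kept at Knockdown differed with spacing as well. In the clones, low-density CpGs of the stretches kept 46.8% of their methylation on average, high-density CpGs 58.4% and solo-WCGW CpGs 36.9%. The difference between low and high density was −10.6, −12.6 and −11.6 points, a mean of −11.6 ± 1.01 (SD, n = 3; exact sign-flip permutation p = 0.25). The order did not hold to the far end. CpGs with none within 100 bp kept 63.2%, 48.2% and 31.3% in Cl.3, Cl.6 and Cl.9, slightly more than the 61.6%, 46.4% and 29.6% of those with a nearest CpG 36 to 100 bp away. In the rest of the PMDs low-density, high-density and solo-WCGW CpGs kept 60.5%, 73.7% and 51.9%. With solo-WCGW CpGs alone on both sides, stretches kept 15.1 points less than the rest of the PMDs, so the difference was nearly as large within this class of CpG. That comparison was added after the data were seen.

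Single CpGs were not evenly low. Of 545463 CpGs in the stretches with at least 10 reads in every library, 55.8% were below 10% mC in Cl.3 at Baseline and 22.2% were at 50% or more. The latter share was 11.9% at Knockdown and 13.4% at Recovery. In Cl.9 it was 15.9%, 2.36% and 3.70%, and in R1 18.2%, 2.76% and 17.6%. A set of 45954 CpGs (8.42%) was at 50% or more in all 3 clone Baselines, and 183158 (33.6%) were below 10% in all 3. The methylated set had a median distance of 34 bp to the nearest CpG and 5.81% solo-WCGW CpGs, against 79 bp and 39.5% in the other. In R1, which did not choose these sets, the methylated set was at 78.4% at Baseline, 38.7% at Knockdown and 76.9% at Recovery, and the other was at 5.70%, 2.06% and 5.71%. Most CpGs were in neither set. In R1 at Baseline 42.2% of the CpGs were below 10%, 39.6% were from 10% to under 50%, and 5.11% were at 85% or more.

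Recovery separated the populations most. From Knockdown to Recovery the clones changed by 1.69, 2.32 and 1.55 points, a mean of 1.86 ± 0.409 (SD, n = 3; exact sign-flip permutation p = 0.25). R1 and R2 changed by 13.4 and 13.5 points, a mean of 13.5 ± 0.132 (SD, n = 2; exact sign-flip permutation p = 0.5, the smallest that 2 populations allow). The difference between the shRNAs was 11.6 points, and both bulk populations lay above all 3 clones (exact two-sided permutation p = 0.2, the smallest that 3 against 2 allow). At Recovery the clones remained 6.87, 10.8 and 11.9 points below Baseline, a mean of −9.85 ± 2.64 points (SD, n = 3; exact sign-flip permutation p = 0.25). R1 and R2 were 0.324 and 0.395 points below it, as a description.

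Of the methylation lost at Knockdown, the stretches regained 19.8%, 17.7% and 11.6% in Cl.3, Cl.6 and Cl.9, a mean of 16.3% ± 4.27 (SD, n = 3). The rest of the PMDs regained 35.8%, 40.1% and 22.6%, and HMDs 49.7%, 56.8% and 46.6%. Of these 3 classes stretches were again lowest in every clone. UMRs outside PMDs regained 26.6%, 13.4% and 28.0%, which was below the stretches in Cl.6 and above them in Cl.3 and Cl.9. The regained share of the stretches minus that of the rest of the PMDs was −16.02, −22.4 and −11.1 points, a mean of −16.5 ± 5.68 (SD, n = 3; exact sign-flip permutation p = 0.25). In the bulk populations the regained share was 97.6% and 97.2% in stretches, 95.8% and 96.1% in the rest of the PMDs and 97.1% and 97.2% in HMDs. There the 3 classes lay close together, and the stretches were not the lowest. Those shares use the Baseline of R1 and R2, which chose the stretches, so they are a description. UMRs outside PMDs regained 88.99% and 88.7%. With the level of UMRs outside PMDs subtracted, also added after the data were seen, the clone difference in regained share was −21.2 points.

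**Figure D3:**
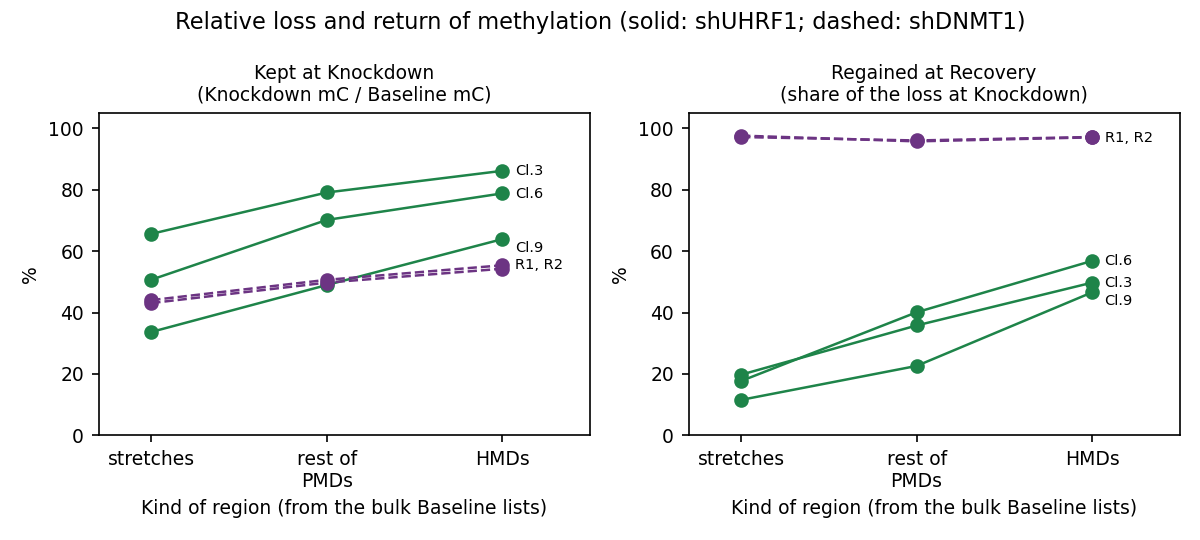
Share of Baseline methylation kept at Knockdown and share of the loss regained at Recovery (percent) by region class, one point per population. In the clones both shares rise from stretches to HMDs (regained means 16.3% in stretches). In R1 and R2, whose Baseline chose the stretches, the regained share is 95.8% to 97.6% in the 3 classes plotted.

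By edgeR, 307 stretches were higher and 2 lower at Recovery than at Knockdown in the clones, 1.48% of those tested for the higher direction. Among all regions tested, 52% were called higher and 0.0013% lower. By class, 36.4% of 8323 windows of the rest of the PMDs and 98.5% of 58643 HMD windows were called higher. The median log2 odds change was 0.25 in stretches, 0.49 in the rest of the PMDs and 0.92 in HMDs. The fit was also run on simulated counts, tested for Knockdown against Baseline in the clones, with 200 of 20000 regions changed. It called 2.99% of regions changed by 0.5 and 29.9% of those changed by 1. Of its calls there, 6.38% were false. Far more regions were called in the data, where the adjustment differs, so these rates do not give the power for the stretches. A stretch that was not called may still have risen. Stretches had fewer reads than windows (medians of 851 and 2237 per library) and a median SE of 0.27 against 0.25, and the part of depth or region size in the count was not tested. The count of calls was 0 with no replicate block (3 at an unadjusted p under 0.05) and depended on single populations, being 0 without Cl.6 (78 at an unadjusted p under 0.05), 1017 without Cl.3, 977 without Cl.9 and 127 without either bulk population. Against Baseline, 20556 stretches were lower at Recovery and none was higher by edgeR (limma, 20645 and none; edgeR with no replicate block, 6901 lower), where 97.1% of all regions were called lower and 0.000652% higher.

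The 307 stretches that were called higher at Recovery stood apart in where they lay. Of them, 56 (18.2%) were on chromosome 6 against 4.34% of all tested stretches, and 111 (36.2%) were at 50% mC or more in at least 1 clone Baseline against 3.00%. These shares are given as a description. The 2 stretches called lower, chr10:133573088-133580560 and chr11:89784484-89793798, overlapped no protein-coding gene and had as few as 54 and 59 reads in a library. On chromosome 11 mC was 34.3%, 25% and 12.99% at Knockdown and 24.2%, 10.1% and 4.8% at Recovery in Cl.3, Cl.6 and Cl.9 (log2 odds change −1.20 ± 0.48 SE, edgeR adjusted p = 0.0273). On chromosome 10 it was 8.45%, 25.3% and 6.67% and then 7.41%, 8.11% and 4.67% (−1.22 ± 0.53 SE, edgeR adjusted p = 0.0444). Both were named after their values were seen, and neither has the reads to be tested when regions need 200 in every library.

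In the shDNMT1 populations 20776 stretches were higher at Recovery than at Knockdown and none was lower by edgeR, where 100% of all regions to 3 digits (153430 of 153490) were called higher. The median log2 odds change was 1.43 in stretches, 2.17 in the rest of the PMDs and 3.29 in HMDs. The interaction, which asks whether the change from Knockdown to Recovery differed between shDNMT1 and shUHRF1, was called for 18662 stretches, all with the larger rise in shDNMT1, and for 151 with no replicate block. Among all regions 97.7% were called in that direction. For shDNMT1 Recovery against Knockdown and for the interaction, limma called no stretch in the opposite direction. Without R1 the edgeR count for the interaction was 9903, without R2 8928 and without Cl.6 10323.

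The domain lists of the other 13 libraries, which did not choose the stretches, were read for the class given to the same base pairs. In the clones, 75.7%, 75.4% and 88.5% of stretch length was called UMR at Baseline, 96.9%, 98.4% and 99.7% at Knockdown and 94.6%, 96.9% and 99.3% at Recovery. The UMR share was higher at Knockdown by 21.2, 23.04 and 11.2 points, a mean of 18.5 ± 6.37 (SD, n = 3; exact sign-flip permutation p = 0.25). The PMD class moved the other way, and unevenly. It held 80.8%, 99.6% and 21.8% of stretch length in Cl.3, Cl.6 and Cl.9 at Baseline and 6.67%, 7.07% and 5.30% at Knockdown. In R1 and R2 it held 0% at Knockdown and 98.9% and 98.99% at Recovery, when 91.2% and 91.0% was called UMR. The lists were called separately in each library, and how these shares relate to the genome share that each list called PMD was not tested.

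The UMRs that covered a stretch also changed in length. A median was taken over stretches, each with the UMR that overlapped it most, so a UMR over several stretches counted for each of them. Long UMRs thus weigh more than in a median over UMRs. This median was 9.97 kb in Cl.3 at Baseline, 17.7 kb at Knockdown and 14.9 kb at Recovery. In Cl.6 it was 9.86, 27.2 and 19.7 kb, and in Cl.9 it was 12.6, 80.9 and 50.7 kb. In R1 it was 9.91, 77.7 and 10.5 kb and in R2 9.93, 84.9 and 10.6 kb. By this measure bulk UMRs were back near their Baseline length at Recovery, and those of the clones were still longer. In Cl.9 the number of separate UMRs over the stretches went from 17428 to 8633 and then 11128, and in R1 from 20309 to 8870 and then 18820. In Cl.6 it went from 16202 to 14549 and then 16074, and in Cl.3 it was higher at Knockdown and Recovery, at 16363, 16842 and 17528. The number of stretches with any UMR changed as well, from 17172 at Baseline to 20486 at Knockdown in Cl.3, from 16971 to 20640 in Cl.6 and from 19270 to 20873 in Cl.9, and it was 20918 at both stages in R1, so the counts of UMRs are over different numbers of stretches.

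The borders of the stretches were sharp. In the first kb inside an edge mC at Baseline was 23.5% in Cl.3 and 22.97% in R1, and in the first kb outside it was 58.7% and 58.4%. From there it was lower again, at 42.6% and 42.3% between 2 and 3 kb outside, and it was 49.1% and 49.0% at 19 to 20 kb. The first kb outside was therefore the highest point of the profile on the outer side. It held 391700 CpGs against 249535 in the first kb inside, and 49.7% of its CpGs were low-density against 80.9% inside. At Knockdown the outer kb was at 45.2% in Cl.3 and 29.3% in R1 and the inner kb at 15.1% and 10.1%. The lists drew the edges in R1 and R2, and the step had nearly the same height in Cl.3, which had no part in drawing them. Cl.6 and Cl.9 had no part either. At Baseline they went from 59.1% outside to 25.2% inside and from 50.9% to 19.2%, a smaller step in Cl.9.

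**Figure D4:**
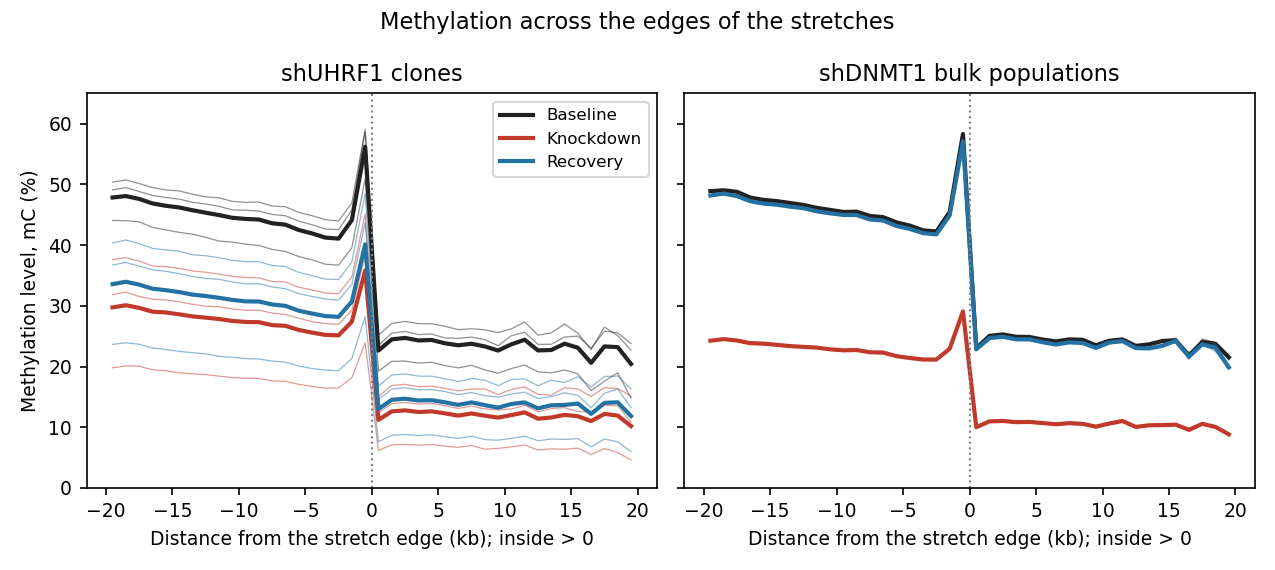
Methylation level (percent) by distance from the edge of a stretch (kb, negative outside), in 1 kb bins pooled over both edges of all stretches, for Baseline, Knockdown and Recovery. In Cl.3 at Baseline the level goes from 58.7% in the first kb outside to 23.5% in the first kb inside, and 1 to 2 kb further in it is 25.5%.

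Single stretches varied around the common level. At Baseline the middle 90% of stretches lay between 15.1% and 36.5% in Cl.3, between 11.3% and 32.9% in Cl.9 and between 16.4% and 32.8% in R1. At Knockdown, 8.32% of stretches were below 10% mC in Cl.3, 22.1% in Cl.6, 88.5% in Cl.9, 39.1% in R1 and 42.6% in R2. Cl.9 was the lowest clone in 77.5% of stretches at Baseline, and the range over the 3 clone Baselines had a median of 8.51 points and exceeded 20 points in 5.68% of stretches. At Recovery 76.4%, 85.4% and 88.2% of stretches were above Knockdown in Cl.3, Cl.6 and Cl.9, against 99.99% in R1. Between the clones the mean chi-square per stretch at 1 stage was 8.32 to 54.7, and between R1 and R2 it was 1.24 to 1.39, where independent reads alone would give about 1. The pairs with Cl.9, the clone with the lowest level, had the highest values. CpGs on one read pair are not independent, so these values are a description, and at Baseline R1 and R2 were the libraries that chose the stretches.

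The length of a stretch and its CpGs per kb hardly moved the response below 12 CpGs per kb, unlike the spacing of single CpGs given above. From stretches of 5 to 7 kb to those of 30 kb and over, the clones kept 49.8% to 50.1% at Knockdown. From under 4 CpGs per kb to 8 to 12 CpGs per kb they kept 49.8% to 50.3% and regained 15.99% to 17.0%. The 102 stretches with 12 or more CpGs per kb kept 54.1% and regained 13.4%. By chromosome the mean regained share was 14.7% to 19.3%, apart from chromosome 6, where 905 stretches regained 25.3%, kept 54.9% and had a clone Baseline mean of 27.7%. On chromosome 6 the clone Baselines were 28.9%, 29.5% and 24.6%, each above its value over all stretches, and R1 and R2 were at 25.1% and 25.2%.

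**Figure D5:**
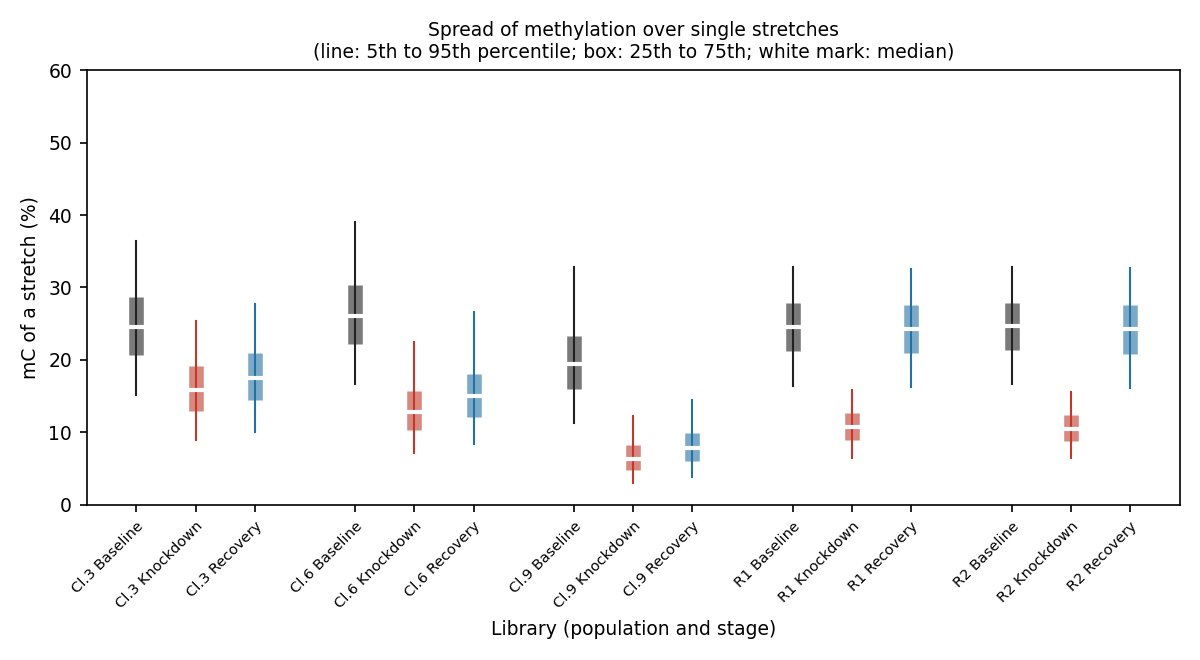
Distribution of the methylation level (percent) over the 20810 stretches with at least 50 reads in every library, one box per library. Medians are 24.6%, 15.9% and 17.5% in Cl.3, 19.5%, 6.37% and 7.78% in Cl.9 and 24.6%, 10.7% and 24.2% in R1 at Baseline, Knockdown and Recovery.

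In each clone a small set of stretches was well methylated, and these sets overlapped in part. At Baseline, 216 stretches (1.04%) were at 50% or more in Cl.3, 353 (1.70%) in Cl.6 and 234 (1.12%) in Cl.9. R1 and R2, whose Baseline lists had to call the members UMR, had 5 and 7. At Recovery, which did not choose the members, R1 and R2 had 8 and 9. In all, 625 stretches were high in at least 1 clone and 26 in all 3. The set of Cl.3 was at 41.0% in Cl.6 and 29.2% in Cl.9 at Baseline. The set of Cl.6 was at 32.6% in Cl.3 and 40.7% in Cl.9, and that of Cl.9 at 31.7% in Cl.3 and 48.0% in Cl.6. Each of these values was above that over all stretches in the same library. Part of the high stretches lay close together, most so in Cl.3. The 3 blocks of 5 Mb with the most held 96 of the 216 in Cl.3 (44.4%), 76 of the 353 in Cl.6 (21.5%) and 66 of the 234 in Cl.9 (28.2%). Chosen by their Baseline, the high stretches of each clone kept 80.3%, 70.0% and 43.9% at Knockdown and regained 54.2%, 53.0% and 25.6% in Cl.3, Cl.6 and Cl.9, as a description. All these shares were above those over all stretches. In Cl.3 and Cl.6 the regained share was close to that of HMDs.

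Stretches high in all 3 clones were few, as given above, and the blocks described here are those in which the clones differed. On chromosome 7 from 5 to 10 Mb all 21 stretches were at 50% or more in Cl.3, with a mean of 63.4% at Baseline, 54.3% at Knockdown and 62.5% at Recovery. The same stretches were at 29.3% in Cl.6, 14.6% in Cl.9 and 32.2% in R1 at Baseline. On chromosome 6 from 90 to 95 Mb, 66 of 102 stretches were high in Cl.3 (52.9%, 44.7% and 52.02% over the stages), with 35.7% in Cl.6, 20.8% in Cl.9 and 27.2% in R1 at Baseline. On chromosome 1 from 65 to 70 Mb, 20 of 21 stretches were high in Cl.6 (66.7%, 50.9% and 63.8%) and all 21 in Cl.9 (70.6%, 38.9% and 53.6%), while Cl.3 was at 24.4% and R1 at 27.0%. On chromosome 1 from 215 to 220 Mb, 33 of 41 were high in Cl.6 alone, at 57.9%, 40.3% and 49.4%. The blocks were chosen after the values were seen and were not tested.

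Of the 5 stretches with the highest mean clone Baseline, one on chromosome 3 lay outside protein-coding genes, chr3:6663321-6673364, and 96.97% of its 33 CpGs were low-density. Its mC at Baseline, Knockdown and Recovery was 75.4%, 57.4% and 65.03% in Cl.3, 74.9%, 51.8% and 61.7% in Cl.6 and 52.7%, 9.71% and 10.1% in Cl.9. In R1 it was 34.8%, 15.6% and 29.8% and in R2 31.3%, 13.1% and 33.2%. Its height at Baseline in the clones against the bulk populations follows from how it was picked. At Knockdown Cl.9 was the lowest of all 5 populations. The change at Knockdown in the clones was −2.04 ± 0.27 (SE) on the log2 odds scale (edgeR adjusted p = 5.52e-14). The clone Baseline that picked the stretch is part of this change, so its size and p-value are a description. The widest Wilson 95% interval of this stretch in a library was 4.61 points either side. Another of the 5, chr6:9270565-9278658, was at 50.4%, 70.8% and 86.8% in Cl.3, Cl.6 and Cl.9 at Baseline and at 45.8%, 52.5% and 47.5% at Knockdown.

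At the other end lay stretches in DAB1 and CTNND2. DAB1 is an adaptor of reelin signalling in migrating neurons, and CTNND2 encodes delta-catenin. In the DAB1 stretch, chr1:57996107-58004027, 95.5% of the 44 CpGs were low-density. Its mC was 5.17%, 1.43% and 4.19% in Cl.3, 8.82%, 2.94% and 3.85% in Cl.6 and 4.53%, 1.03% and 1.91% in Cl.9. R1 was at 7.57%, 2.14% and 7.37% and R2 at 8.28%, 2.28% and 9.22%. Even here each population was lower at Knockdown, and the fitted change in the clones was −1.88 ± 0.34 (SE; edgeR adjusted p = 5.52e-08). That change too includes the clone Baseline that picked the stretch, so it is a description. In the CTNND2 stretch, chr5:11023810-11034810, mC was 8.46%, 8.66% and 4.78% at Baseline in the clones and 6.29%, 2.75% and 0.726% at Knockdown.

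The largest fitted fall at Knockdown was in the body of PCDH7, a protocadherin gene (chr4:30765114-30771598). The clones went from 34.0% to 5.11% in Cl.3, from 7.49% to 0.529% in Cl.6 and from 20.7% to 3.08% in Cl.9, and R1 from 17.4% to 5.58%. The log2 odds change was −3.26 ± 0.31 (SE, edgeR adjusted p = 2.38e-24). In Cl.6, at 0.529%, few methylated reads set the log odds at Knockdown. The stretches of this paragraph were picked by the size of this change, so sizes and p-values are a description. Next were a pair of neighbouring stretches outside protein-coding genes, chr9:21681172-21686712 (−3.10 ± 0.34 SE) and chr9:21674470-21679956 (−2.68 ± 0.32 SE). The first of these was at 17.1%, 7.44% and 17.6% at Baseline and 3.89%, 1.03% and 1.37% at Knockdown in Cl.3, Cl.6 and Cl.9. A stretch in FREM1, which encodes a basement membrane protein, was also among the 5 (−2.30 ± 0.28 SE). No stretch rose in all 3 clones and was called.

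On the log2 odds scale, the largest fitted rises from Knockdown to Recovery in the bulk populations were in SNTG2 and at CEACAM4, the latter with a smaller rise in points than the mean over all stretches. SNTG2 encodes a syntrophin, a scaffold of the dystrophin complex, and CEACAM4 a cell-surface protein of granulocytes. In the SNTG2 stretch, chr2:1194920-1204810, R1 went from 10.8% to 35.01% and R2 from 8.17% to 35.9% (log2 odds change 2.40 ± 0.33 SE, edgeR adjusted p = 1.46e-12). The clones went from 8.39%, 4.72% and 2.17% to 10.1%, 6.60% and 3.05%, a difference from the bulk change of 1.98 ± 0.47 SE (edgeR adjusted p = 4.79e-05). The stretches of this paragraph were picked by the bulk change, so these sizes and p-values are a description. The CEACAM4 stretch, chr19:41625854-41631136, held the gene's 5′ end, and R1 went from 2.41% to 15.1% and R2 from 3.97% to 13.8% (2.38 ± 0.36 SE). A stretch in CSMD2, a large transmembrane protein of the nervous system, went from 3.46% to 14.1% and from 2.81% to 12.99%.

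In GENCODE release 44, protein-coding gene bodies held 27.2% of stretch length, genes of long noncoding RNAs alone 19.2%, and 53.6% lay in neither, close to the 28.0%, 18.2% and 53.8% of the rest of the PMDs. Exons took up 1.33% of stretch length against 2.82% in the rest of the PMDs and 6.51% in HMDs. Only 223 stretches (1.07%) held a 5′ end of a protein-coding gene, 253 of 19111 such ends (1.32%), or 1.14 per Mb. The rest of the PMDs held 2.79 per Mb and UMRs outside PMDs 88.4 per Mb, so in this respect too the stretches were unlike the long UMRs outside PMDs.

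The genes with the most length in stretches were NRXN3, with 829 kb (48.8%) in 81 stretches, PTPRD, a receptor tyrosine phosphatase, with 729 kb in 69, and DLG2, a postsynaptic scaffold, with 712 kb in 62. CNTNAP2, of the neurexin superfamily, had 690 kb in 82, PCDH15, a protocadherin of inner ear hair cells, 688 kb in 66, and EYS, a protein of photoreceptors, 675 kb in 60. DCC, a netrin receptor, followed with 607 kb (50.8%) in 54. By list, 9 of 16 contactin and neurexin genes, 10 of 16 GABA-A receptor genes, 8 of 25 glutamate receptor genes, 18 of 94 potassium channel genes, 15 of 86 protocadherin and cadherin genes and 44 of 504 zinc finger genes overlapped a stretch, as did 968 of all 19111 protein-coding genes (5.07%). None of 39 HOX, 76 ribosomal protein or 22 UDP-glucuronosyltransferase genes did, and 1 of 24 bitter taste receptor genes did. These counts rise with gene length and were not tested.

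Gene starts in the stretches were led by olfactory receptors, the odorant receptors of the nasal epithelium. They supplied 116 of the 253 ends (45.8%), that is 28.0% of 415 olfactory receptor genes. Genes were counted by symbol, which takes in the overlapping transcript OR4M2-OT1 and some symbols that mark pseudogenes, such as OR51C1P. Keratin-associated proteins, which build the hair shaft, supplied 9 of 94 genes, and beta-defensins, antimicrobial peptides of epithelia, DEFB115 and DEFB116 of 40. Of 108 tested stretches with an olfactory receptor start, all 108 were lower at Knockdown than at Baseline in the clones, 106 were lower at Recovery than at Baseline and 108 were higher at Recovery than at Knockdown in the bulk populations, near the shares over all regions above. On chromosome 11, 58 such stretches with 60 starts had a median of 23.5%, 15.8% and 19.1% in Cl.3, 20.9%, 6.41% and 8.31% in Cl.9 and 23.9%, 10.1% and 23.9% in R1. Some olfactory receptor genes are recent duplicates that are close in sequence, and the share of reads placed on relatives was not tested.

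Single starts of other lists gave similar values. In the NRXN3 stretch, chr14:78160054-78171279, mC was 19.6%, 12.7% and 15.6% in Cl.3, 23.5%, 10.2% and 11.5% in Cl.6, 15.1%, 4.33% and 6.68% in Cl.9 and 20.5%, 8.92% and 19.6% in R1. The GRIA1 stretch, chr5:153484718-153490924, was at 22.8%, 11.4% and 15.6%, at 26.2%, 12.4% and 15.0%, at 27.9%, 5.97% and 7.92% and at 27.4%, 13.01% and 27.2% in the same populations. The stretch at KCNJ15, an inward rectifier potassium channel, was at 25.4%, 26.8% and 18.3% in the clones at Baseline, and that at ZNF479, a zinc finger gene, at 26.7%, 29.5% and 24.7%. All 4 were called lower at Knockdown in the clones and higher at Recovery in the bulk populations by edgeR, as were nearly all stretches.

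Many of the longest stretches lay near centromeres or held genes with close copies. Copies may share reads there, so levels are uncertain. Repeats were not annotated, and the placement of reads was not tested. The longest with 200 reads in every library was chr17:25389873-25920217, with 9184 CpGs of which 42.6% were low-density. It had as few as 462 reads in a library, so most of its CpGs had none there and the level rests on the few that did. A pair of CpGs within 50 bp of its start alone had 51 to 120 reads each per library. The covered CpGs were at 55.3%, 42.2% and 41.3% in Cl.3, 49.6%, 26.3% and 29.8% in Cl.9 and 61.0%, 32.7% and 54.2% in R1. The name low-methylated does not describe these covered CpGs at Baseline. Among the 10 longest with a gene start were those at POTEB, OR11H1, OR4A8 and the salivary amylase genes AMY1A, AMY1B and AMY1C, which were called lower at Knockdown. The stretch at TP53TG3 was not called, at 35.9%, 34.7% and 27.2% at Baseline and 31.2%, 30.5% and 19.8% at Knockdown in the clones (log2 odds change −0.40 ± 0.27 SE, edgeR adjusted p = 0.140). The stretch at TRIM49D1 and TRIM64B was not called in the bulk populations, at 17.1% and 13.5% at Knockdown and 16.5% and 17.9% at Recovery in R1 and R2 (0.20 ± 0.35 SE, edgeR adjusted p = 0.563).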

How the data were processed

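Genomic DNA of HCT116 cells was bisulfite-converted and sequenced, and reads that still show C at a CpG were taken as methylated. Per the labels, the authors aligned reads to hg38 with Meth10X version 1.2 and deposited raw read counts per CpG and library, methylated reads and all reads, with both strands combined and no filter on coverage. The treatment of duplicates and of sequence variants was not given in the sources used here. The authors also deposited a domain list per library without numbers of reads, made with MethylSeekR (PMD, LMR, UMR) and bedtools version 2.25.0. The MethylSeekR settings were not given in the sources used here. All 27852739 autosomal CpGs were checked to be CG in hg38.

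Members were the base pairs that both bulk Baseline lists called UMR and PMD, merged, of 5 kb or more. The rest of the PMDs (without any UMR or LMR of either list), HMDs and UMRs outside PMDs were taken from the same 2 lists, also in pieces of 5 kb or more. The members, gene lists and tests were chosen with earlier results of these data known. Reads were summed over the CpGs of a class, stretch or 20 kb window. Low-density CpGs and solo-WCGW CpGs follow the study's definitions.

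Paired changes within a population were tested by sign-flip permutation and the shRNAs by permutation of population labels, both exact and two-sided. Stretches and 20 kb windows with at least 5 CpGs and 50 reads in each of 15 libraries were tested with edgeR version 4.0.16 (glmQLFit and glmQLFTest, methylation design matrix, population as block) in R 4.3.3, on 13 libraries without the 2 bulk Baselines, with Benjamini-Hochberg adjustment over 153490 regions. The edgeR and summary steps were tested on simulated data. limma version 3.58.1 on log2 ratios of methylated over unmethylated reads, each plus a pseudocount of 1, was an alternative, beside other read minimums, lengths of 10 kb, trimmed edges, equal weight per stretch, fits without the block, and leaving out each population. Other steps used Python 3.11.15, numpy 2.4.6 and scipy 1.17.1.

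Libraries were paired by the clone or replicate in their labels, which names the cell population. Across stretches, the deviations from the group mean correlated between stages of a clone with r from 0.702 to 0.884, and between Knockdown and Recovery of a bulk population with r = −0.0213. No pair of libraries was a duplicate. Named stretches, all with at least 200 reads in every library, were the 10 longest, the 5 with the highest and the 5 with the lowest mean clone Baseline, the 5 with the largest called fall and rise at shUHRF1 Knockdown in all 3 clones (no rise qualified), the 5 with the largest called rise at shDNMT1 Recovery, and the 10 longest with the start of a protein-coding gene in GENCODE release 44. Named genes also included members of the gene lists with a start in a stretch. The 5′ end of the gene model stood for the start. Some of the named stretches are not reported here.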

Additional observations from a re-analysis of the deposited data

Results flagged for a closer look

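The change from Knockdown to Recovery differed between the shRNAs in 18662 of 20810 low-methylated PMD stretches (edgeR interaction, adjusted over all regions), always with the larger rise in the shDNMT1 bulk populations. With no replicate block 151 were called. Among all 153490 regions tested 97.7% were called in that direction, so the difference was not particular to the stretches. Pooled over stretches, the clones gained 1.86 points on average and R1 and R2 gained 13.5. The hairpin and the kind of population cannot be told apart in it, and the part of either was not tested.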

How the results depend on the processing

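The pairing was fitted as a population block. With no replicate block, the stretches called by edgeR were 6901 for shUHRF1 Recovery against Baseline, 0 for shUHRF1 Recovery against Knockdown (3 at an unadjusted p under 0.05) and 151 for the difference between the shRNAs (966 at an unadjusted p under 0.05), and the other call counts stayed within 1.5 times. The exact permutation p-values of the 4 paired changes were then 0.1, 0.1, 0.6 and 0.333, where the smallest possible are 0.1 for 3 against 3 and 0.333 for 2 against 2. For shUHRF1 Recovery against Knockdown, limma called 780 stretches (770 higher and 10 lower) and the fit of all 15 libraries 572, against 309. Leaving out each population in turn gave 0 to 1017 calls for this comparison and 8928 to 19939 for the difference between the shRNAs, and moved the difference in Knockdown level between −4.25 and 0.510 points, with a reversed sign only without Cl.3. The cause of these shifts was not tested. In all, 125 of the alternative values kept direction, and those that were counts of calls stayed within 1.5 times. Of the others, 9 counts shrank beyond 1.5 times or to 0, 4 counts grew beyond 1.5 times and 1 value reversed. The permutation tests cannot pass 0.05 in designs of this size, so their p-values say nothing about stability. Depth limits single CpGs, with 11 to 21 reads at the median, more than whole stretches.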
